A study of Mus musculus and Rattus norvegicus with 8 samples.

Results

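The data described here are the mouse arrays of a study of mechanically ventilated rodent lung: 4 of 8 samples, each lung RNA on 1 array, compared across all genes that the array measures. The arrays titled as controls and as ventilated mice were taken by their titles, and every probe set other than the maker's control probe sets was used, 12422 on each array. After probe sets were joined to genes and dim genes were set aside, 6888 genes remained. All 4 samples came from lungs of male C57BL6 mice, 7 to 8 weeks old. The 2 control mice breathed spontaneously. The 2 ventilated samples had large tidal volumes, which per the labels were either 17 ml/kg over 6 hours or 35 ml/kg over 2 hours. The labels do not say which array had which, so both form 1 group, and regimen, animal and array cannot be told apart in any difference between them. No label says whether the controls were anaesthetised or handled like the ventilated mice, or whether a sample is 1 animal or a pool. Replicates are known only as separate samples, so each p-value and SE rests on the spread between these samples and not between known animals. The test (limma) moderates the spread of each gene with that of other genes, and each printed SE is the moderated value. The array is the MG_U74Av2 GeneChip, on which each probe set reads 1 transcript stretch with short oligonucleotides, and its values are fluorescence signals.

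A ventilator that delivers more air than a normal breath stretches the alveolar wall at every cycle. Stretch of epithelium and endothelium is known to activate mitogen-activated protein kinases and to switch on immediate early genes, which need no new protein for their transcription. Many of these genes encode brakes on the same signal, such as kinase phosphatases and binding proteins of receptors. Stress also raises adrenal glucocorticoids, whose receptor acts on DNA at glucocorticoid response elements and on many of the same target genes. Ventilation of this kind is also known to bring neutrophils into the lung.

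The samples carried lung RNA by their markers. The deposited signal of Sftpc, the surfactant protein gene of alveolar type 2 cells, was 7669.5 and 6621 on controls 1 and 2 and 11958 and 7599.9 on ventilated arrays 1 and 2. Quantile normalisation puts this brightest probe set at the same value on every array, so for it only the deposited signals can differ. Those carry differences of scale between arrays as well. As deposited, Scgb1a1 and Ager were also highest on ventilated 1, at 10527.5 and 5418, while the bright genes Napsa and Hp were not. Normalised values follow rank within an array, so bright genes can take equal values on different arrays. Ager, a marker of alveolar type 1 cells, had normalised signals of 4460.2 and 4524 on controls and 4427 and 4524 on ventilated arrays, and Sftpb had 4775 and 4077 on controls and 4350.1 and 4311 on ventilated arrays. In this and all later sentences, paired values stand in the order of arrays 1 and 2 of a group. Deposited medians lay between 55.65 and 63.6. The arrays did not sort by group. Across the genes tested, the fewest genes that differed at least 2-fold between any pair of arrays, 336, was between control 1 and ventilated 2, against 648 between the controls and 1059 between the ventilated arrays. Ventilated 1 differed at least 2-fold from control 1 in 1226 genes and from control 2 in 931. The hybridisation spike-ins, bacterial and phage transcripts normally added in fixed amount, had a median signal of 2.62 times the control mean on ventilated 1, over 9 probe sets, and of 0.990, 1.01 and 0.960 times on control 1, control 2 and ventilated 2. The 3′ to 5′ signal ratio of Gapdh, a measure of how complete the labelled RNA is, was 2.96 and 1.16 on the controls and 1.53 and 2.48 on the ventilated arrays. Values that rest on ventilated 1 are therefore given with those of ventilated 2.

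The question of the comparison is which genes of the lung ventilated with large breaths differ in level from those of spontaneously breathing mice. Higher on both ventilated arrays, beside 12.9% of all genes, were 18 of 29 glucocorticoid-responsive genes (62.1%). So were 19 of 32 genes of immediate early transcription factors (59.4%) and 10 of 13 of kinase and receptor feedback (76.9%). Among them were Cebpd, Fkbp5, Cdkn1a, Atf3, Errfi1 and Gadd45g. The gene lists overlap in places and were chosen with earlier results of these data known. Lower on both were 10 of 23 interferon-stimulated genes (43.5%, beside 14.5% of all genes) and the clock gene Dbp. None of these differences passed the test over all genes: limma called 0 of 6888 genes in either direction (0% in each), and the smallest adjusted p was 0.9997 (limma, Benjamini-Hochberg). At an unadjusted limma p under 0.05 there were 111 higher and 67 lower genes, 178 in all, fewer than the 344.4 that a flat distribution of p gives. With 2 arrays against 2, an exact permutation test of a single gene cannot go below 0.333. The following values are therefore descriptions of these 4 arrays, and a gene whose groups do not overlap has not passed a test.

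Both ventilated arrays lay above both controls in 890 genes, 12.9% of those tested, and below both in 999, 14.5%. A further requirement of at least a 2-fold mean difference left 118 higher genes (1.71%) and 71 lower genes (1.03%). Where a second probe set of the 118 genes was measured, 23 of 25 such probe sets had the same sign and 18 also kept the groups apart; for the 71 lower genes these counts were 6 and 4 of 7. The list of separated genes leaned on ventilated 1. That array stood at least 2-fold above both controls in 229 genes and at least 2-fold below both in 277, against 73 and 41 for ventilated 2. Without ventilated 1, 163 genes were at least 2-fold higher and 114 lower, of which 63 and 24 were among the 118 and 71. Without ventilated 2 the counts were 367 and 443, and without control 1 or control 2 they were 202 and 256 or 244 and 170.

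The strictest description, both ventilated arrays at least 2-fold above both controls, held for 24 genes and in the opposite direction for 5. These were listed after the values were seen. Sorted by known role after the values were seen, they held the transcription factor genes Cebpd, Atf3, Maff, Nfil3 and Foxf1, the kinase genes Map3k6 and Pim3, the phosphatase gene Dusp8, the receptor gene Egfr by 1 of its 3 probe sets, the stress gene Gadd45g and the cell cycle inhibitor gene Cdkn1a. Receptors and ligands of inflammation and vascular tone were Il1r2, Ptafr, Plaur, Cxcl2 and Edn1. The others were Fkbp5, Tat, Pde4b, Epop, Ctrl, Ninj1, Rassf1 and Grin2d. Foxf1, a transcription factor gene of lung mesenchyme and capillary endothelium, had signals of 107 and 75.2 on controls and 224 and 359 on ventilated arrays, a log2 difference of 1.66 ± 0.37 (SE). Pim3, a survival kinase gene, had 209 and 394 and 795 and 1146. Ptafr, the receptor gene for platelet-activating factor, had 14.7 and 19.8 and 46.5 and 44.0, close to the floor of 14.25 on the controls. The floor is the 25th percentile of all signals, to which lower values were raised before logs were taken. The 5 genes on the low side were Plscr2, Dbp, Get4, Pck1 and Pcbp4. Plscr2, a phospholipid scramblase gene, had 61.7 and 89.5 on controls and 9.93 and 15.1 on ventilated arrays. Pcbp4, which encodes an RNA-binding protein, had 111 and 114 and 53.5 and 49.0, a log2 difference of -1.14 ± 0.33 (SE).

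**Figure D1:**
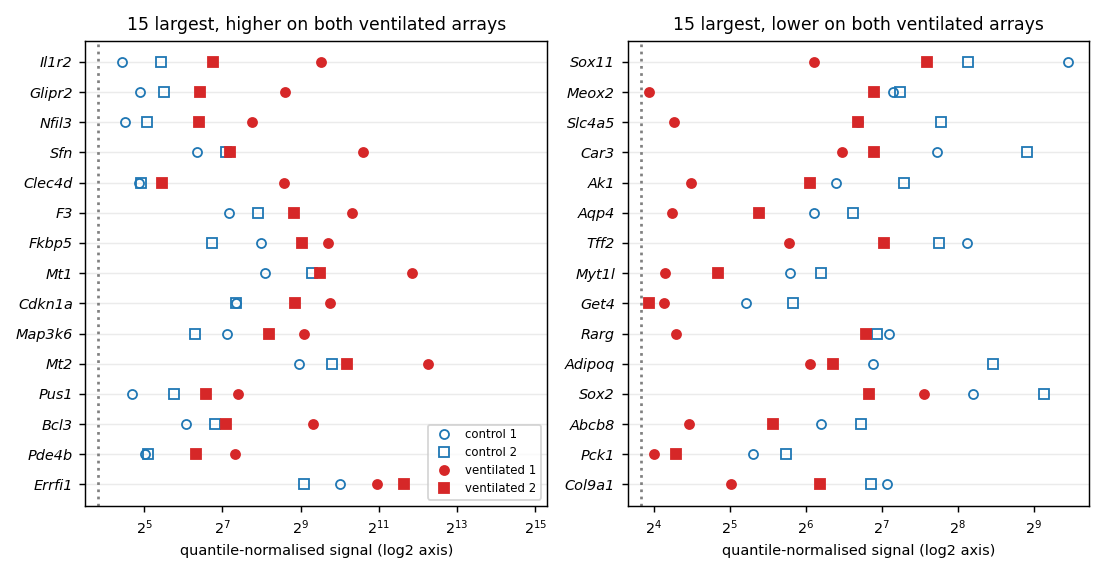
Quantile-normalised signal (log2 axis) on each of the 4 arrays for the 15 genes with the largest difference in each direction among genes above the floor on every array; open symbols are controls, filled symbols ventilated arrays, circles replicate 1, squares replicate 2, and the dotted line is the floor of 14.25. In most rows the filled circle of ventilated 1 is farthest from the controls, as for Il1r2 at 740.2, while Errfi1 has its highest signal, 3170.0, on ventilated 2.

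Glucocorticoid-responsive genes were higher on both ventilated arrays in most members. Of 29 members tested, 25 had a positive difference, against 46.8% of all genes. Both ventilated arrays lay above both controls in 18 (62.1%, beside 12.9% of all genes) and below both in 1 (3.45%, beside 14.5%). The median log2 difference of the members was 1.01, beside -0.03 over all genes tested. Medians on the single arrays, taken from the mean of the controls, were 0.87 on ventilated 1 and 0.82 on ventilated 2, so neither ventilated array alone carried the list. Fkbp5, which encodes a co-chaperone that restrains the receptor, had signals of 252 and 107 on controls and 829 and 522 on ventilated arrays, a log2 difference of 2.00 ± 0.47 (SE). Sgk1, a kinase gene that acts on sodium transport, had 589 and 679 and 1019 and 1591, a difference of 1.01 ± 0.29 (SE). Per1, a clock gene, had 267 and 138 and 373 and 875. In these 3 genes the groups did not overlap, and the highest array was ventilated 1 for Fkbp5 and ventilated 2 for Sgk1 and Per1.

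Other members of the list have roles in growth and metabolism. Cdkn1a had signals of 164 and 162 on controls and 864 and 467 on ventilated arrays, a difference of 1.97 ± 0.36 (SE), and its second probe set one of 1.43. Map3k6, a kinase gene of the stress-activated cascade, had 139 and 79.2 and 547 and 292. Ddit4, an inhibitor gene of the growth kinase mTOR, had 283 and 241 and 469 and 1183, with its highest signal on ventilated 2. Angptl4, which encodes an inhibitor of lipoprotein lipase, had 158 and 121 and 429.5 and 273. Tat, an amino acid enzyme gene best known from liver, had 4.0 and 13.1 on controls, both under the floor, and 69.3 and 54.5 on ventilated arrays, so its log2 difference of 2.11 ± 0.39 (SE) was taken from the floor. The gluconeogenic enzyme gene Pck1, which the hormone induces in liver, went the other way in lung, with 39.7 and 53.7 on controls and 16.1 and 19.7 on ventilated arrays, a difference of -1.37 ± 0.41 (SE). The metallothionein genes Mt1 and Mt2 were led by ventilated 1. Mt1 had 272 and 623 on controls and 3674 and 725 on ventilated arrays, and Mt2 had 496 and 898 and 4919 and 1154. Members with overlapping groups included Klf9, at 1232 and 750.0 on controls and 587 and 1491 on ventilated arrays, and Bcl6, at 207 and 175 and 290.1 and 127. The receptor gene itself, Nr3c1, was dim on this array at 13.9 and 23.4 and 30.0 and 11.7.

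Promoter windows show what letters lie before the starts of the genes that were at least 2-fold higher. RefSeq windows (GRCm38.p6, 250 bases before to 50 after each start) were matched by symbol to 94 of the 118 higher genes, 60 of the 71 lower genes and 5524 of all 6888. The glucocorticoid response element, searched as GNACA and TGTNC with any 3 bases between them, was found in 5 of the 94 higher genes (5.32%), in 0 of the 60 lower genes and in 21 of the 5524 (0.380%). Counted by window, because a gene can have several starts, these were 5 of 127 windows (3.94%), 0 of 86 and 22 of 7132 (0.308%). The 5 genes were Map3k6, Mt1, Serpina3n, Sgk1 and Slc10a6. Fkbp5, Cdkn1a, Tat, Errfi1 and Per1 had no match to this element in their windows. A kappa B site, searched as GGGA, any base and TTTCC, was found in 3 of the 94 (3.19%), namely Cxcl1, Cxcl2 and Nfkbia, in 1 of the 60 (1.67%) and in 31 of the 5524 (0.561%). A cyclic AMP response element, TGACGTCA, was found in 7.45%, 1.67% and 3.31% of the same gene sets and an AP-1 site, TGANTCA, in 12.8%, 11.7% and 7.04%. A C/EBP site, TTGCGCAA, was found in 0 of the 94, 1.67% of the 60 and 0.416% of the 5524. The E-box CACGTG was found in 12.8%, 8.33% and 11.6%, and the CArG box of serum response factor in 4.26%, 5% and 1.90%. No motif searched contains another, all were searched on both strands, and each match is a description of these letters and not of binding.

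Of the higher genes that carry the response element or the kappa B site, 6 are printed here, and Serpina3n and Cxcl1 are not. Each is given as the 250 bases before a start on the gene's own strand from RefSeq, with the matching letters in capitals. The windows are Map3k6 at chr4:133240568-133240817 (plus strand), Slc10a6 at chr5:103629404-103629653 (minus), Mt1 at chr8:94178839-94179088 (plus), Sgk1 at chr10:21993640-21993889 (plus, 1 of 6 windows of the gene), Cxcl2 at chr5:90903649-90903898 (plus) and Nfkbia at chr12:55492648-55492897 (minus), all in GRCm38.p6.
Map3k6: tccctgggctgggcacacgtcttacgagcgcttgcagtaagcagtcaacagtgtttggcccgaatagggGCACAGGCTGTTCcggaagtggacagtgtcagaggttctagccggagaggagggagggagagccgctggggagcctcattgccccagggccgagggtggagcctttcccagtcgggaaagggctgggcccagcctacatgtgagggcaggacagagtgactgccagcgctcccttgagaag
Slc10a6: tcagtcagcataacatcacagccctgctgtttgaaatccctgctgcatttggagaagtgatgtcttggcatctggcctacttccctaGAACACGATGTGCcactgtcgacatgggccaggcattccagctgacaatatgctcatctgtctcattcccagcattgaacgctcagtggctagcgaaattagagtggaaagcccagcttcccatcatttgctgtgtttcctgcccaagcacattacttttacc
Mt1: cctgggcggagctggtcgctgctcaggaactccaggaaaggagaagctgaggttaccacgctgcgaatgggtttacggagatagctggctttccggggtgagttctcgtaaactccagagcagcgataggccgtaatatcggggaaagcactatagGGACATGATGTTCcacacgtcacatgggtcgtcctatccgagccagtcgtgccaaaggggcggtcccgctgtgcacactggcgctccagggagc
Sgk1: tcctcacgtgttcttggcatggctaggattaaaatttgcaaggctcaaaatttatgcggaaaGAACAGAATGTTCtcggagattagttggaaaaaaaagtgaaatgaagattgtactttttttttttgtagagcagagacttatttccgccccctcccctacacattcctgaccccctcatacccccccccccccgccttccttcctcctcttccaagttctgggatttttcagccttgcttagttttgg
Cxcl2: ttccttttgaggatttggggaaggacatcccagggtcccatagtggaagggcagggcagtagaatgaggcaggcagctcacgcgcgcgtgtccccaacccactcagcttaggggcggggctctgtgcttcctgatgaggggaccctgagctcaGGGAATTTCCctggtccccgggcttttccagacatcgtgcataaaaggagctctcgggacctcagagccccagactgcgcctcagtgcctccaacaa
Nfkbia: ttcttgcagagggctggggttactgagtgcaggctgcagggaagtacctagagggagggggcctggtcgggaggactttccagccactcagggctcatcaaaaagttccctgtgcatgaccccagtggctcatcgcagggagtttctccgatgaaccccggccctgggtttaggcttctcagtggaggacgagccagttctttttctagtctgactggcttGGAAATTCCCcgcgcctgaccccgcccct
In Map3k6, Slc10a6, Mt1 and Sgk1 the response element begins at -181, -163, -94 and -188 from the start, and in Cxcl2 and Nfkbia the kappa B letters begin at -97 and -29. For Map3k6, Mt1 and Sgk1 that start lies inside the annotated span of the gene. Nfkbia has them in the reverse orientation. Slc10a6, a sulphated steroid transporter gene, had signals of 254 and 180.2 on controls and 543 and 415 on ventilated arrays, a log2 difference of 1.15 ± 0.31 (SE). Nfkbia, which encodes the inhibitor of NF-kappaB and is a target of both NF-kappaB and the glucocorticoid receptor, had 579 and 627 and 1102 and 1588, a difference of 1.13 ± 0.27 (SE).

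Immediate early transcription factors formed the second group. Of 32 tested, 27 had a positive difference. In 19 both ventilated arrays lay above both controls (59.4%, beside 12.9% of all genes) and in 1 both lay below (3.12%, beside 14.5%). The median log2 difference was 0.64, with medians of 0.62 and 0.49 on ventilated arrays 1 and 2. Atf3, a stress-induced repressor gene, had signals of 107 and 129.8 on controls and 325 and 404 on ventilated arrays, though 1 of its 3 probe sets was under the floor on every array. The AP-1 subunit genes Jun and Junb had 316 and 254 and 181 and 344 on controls and 545 and 851 and 572 and 602 on ventilated arrays, differences of 1.27 ± 0.32 (SE) and 1.23 ± 0.36 (SE). Zfp36, which encodes a protein that destabilises cytokine mRNAs, had 379 and 425 and 760.5 and 989. Klf4 and Klf2, flow-responsive factor genes of the endothelium, had 675 and 612 and 214 and 179 on controls and 1363 and 1310.5 and 306 and 396 on ventilated arrays. In all of these genes the groups were apart, and both ventilated arrays contributed about equally for Klf4 and Atf3. Maff, a small Maf gene, had 4.08 and 17.3 on controls and 67.4 and 52.1 on ventilated arrays, with 1 control under the floor. The first-wave genes Fos, Egr1 and Nr4a1 did not separate the groups. Fos had 179 and 1096 on controls and 734 and 633 on ventilated arrays, Egr1 had 127 and 392 and 230.2 and 131, and Nr4a1 had 98.1 and 592 and 306 and 736. In each of the 3, control 2 was above control 1 by more than 3-fold.

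Genes that brake kinase signals were higher with the factors above. Of 13 members of the list of kinase and receptor feedback, 11 had a positive difference. The groups were apart upwards in 10 (76.9%, beside 12.9% of all genes) and downwards in 1 (7.69%, beside 14.5%). The median was 0.79 and the array medians were 1.08 and 0.80. Errfi1, a feedback inhibitor gene of the EGF receptor, had signals of 1035 and 541 on controls and 1995 and 3170.0 on ventilated arrays, and its other probe set differed by 2.82 on the log2 scale. Its target gene Egfr, read by a dim probe set, had 10.1 and 16.9 on controls and 43.8 and 52.1 on ventilated arrays, a difference of 1.62 ± 0.40 (SE). Its other 2 probe sets differed by 0.40 and 0.12, and without either ventilated array 1 of them became the brightest, so the difference ran from 0.28 to 1.70 without 1 array. The ligand gene Hbegf, which stretch is known to induce in other cells, had 189 and 195 on controls and 221 and 176 on ventilated arrays. Its groups overlapped. The dual-specificity phosphatase genes Dusp1, Dusp6, Dusp8 and Dusp16, whose products switch off mitogen-activated kinases, each had the groups apart. Dusp1 had 974 and 1363 and 2561 and 2009, Dusp6 had 682 and 386 and 1288 and 951, and Dusp16 had 111 and 152 and 535 and 223. Dusp2, a phosphatase gene of leukocytes, was the member with the groups apart downwards, at 222 and 131 and 127 and 126. Gadd45g, a growth arrest gene, had 90.5 and 99.0 and 325 and 227, a difference of 1.52 ± 0.32 (SE), whereas its relative Gadd45b had 506 and 433 and 287 and 510.2.

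**Figure D2:**
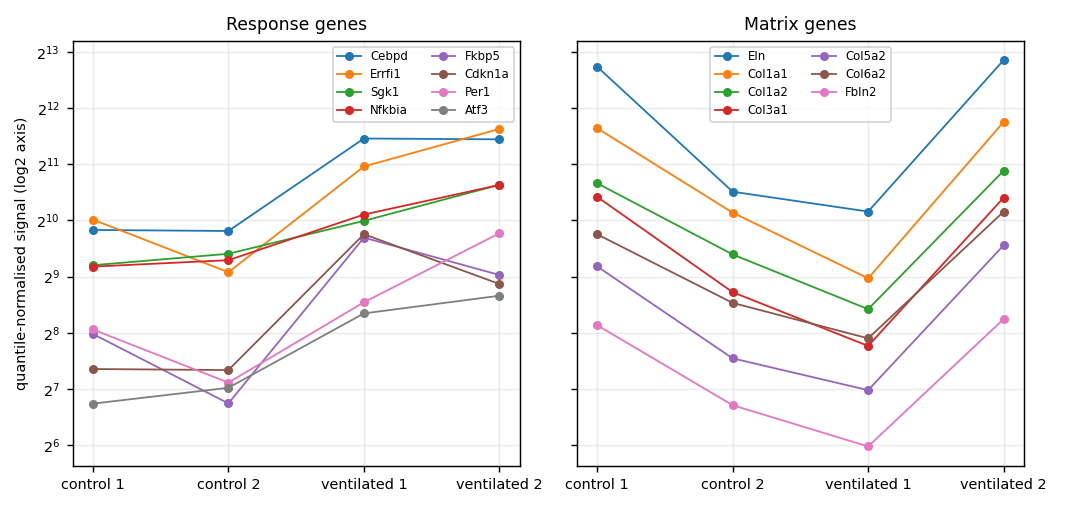
Quantile-normalised signal (log2 axis) of 8 response genes (left) and 7 matrix genes (right), chosen after their values were seen, on the 4 arrays; each line joins the 4 arrays for 1 gene and stands for no order in time. The response genes are higher on both ventilated arrays, as for Cebpd, while the matrix genes are high on control 1 and ventilated 2 and low on control 2 and ventilated 1, as for Eln from 1143 to 7419 within the ventilated group.

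Among the C/EBP factors, 2 of 5 tested members were apart upwards (40%, beside 12.9% of all genes) and 1 downwards (20%, beside 14.5%). Cebpd had signals of 911 and 899 on controls and 2816 and 2788 on ventilated arrays, the smallest unadjusted p of any gene tested. Cebpb, its partner in the acute phase response, had 868 and 1006 and 1604 and 1779, a log2 difference of 0.85 ± 0.23 (SE). Cebpa, known for its role in the maturation of alveolar epithelium, had 1573 and 1524 and 1088 and 1296, a difference of -0.38 ± 0.23 (SE).

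Clock genes lay on both sides of the controls. Of 17 tested, 11 had a positive difference, with a median of 0.08. The groups were apart upwards in 4 (23.5%, beside 12.9% of all genes) and downwards in 2 (11.8%, beside 14.5%). Dbp, an output gene of the clock that Bmal1 drives, had signals of 126 and 74.4 on controls and 3.15 and 36.7 on ventilated arrays, the lower of them under the floor, a difference of -2.08 ± 0.56 (SE). Nr1d1, the gene of the repressor Rev-erb alpha, had 356 and 394 and 86.7 and 293, and Arntl, the gene of Bmal1, had 48.4 and 98.4 and 209 and 120.0. Nfil3, whose product competes with Dbp for the same sites, had 22.7 and 33.7 and 217 and 84.5, a difference of 2.29 ± 0.53 (SE). The clock genes Clock and Per2 stood at 132 and 102 and 36.9 and 36.2 on controls and 122 and 118 and 25.1 and 48.7 on ventilated arrays, with overlapping groups. The hour of tissue collection is not given in the labels, and its part in these values was not tested.

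In the list of vascular tone, 9 of 13 genes were positive, 5 were apart upwards (38.5%, beside 12.9% of all genes) and 0 downwards, with a median of 0.29. Edn1, which encodes endothelin, had signals of 117 and 132 on controls and 293 and 347 on ventilated arrays, and both of its probe sets differed, by 1.28 and 1.35. Npr3, the clearance receptor gene of natriuretic peptides, had 139 and 59.0 and 176 and 270.0, and Ace, the angiotensin-converting enzyme gene, had 450.2 and 589 and 939 and 692. Of 17 coagulation and fibrinolysis genes, 4 were apart upwards (23.5%) and 3 downwards (17.6%, beside 14.5% of all genes), with a median of 0.14. F3, the gene of tissue factor, which starts clotting, had 143 and 239 and 1262 and 456, a difference of 2.04 ± 0.53 (SE). The plasminogen activator gene Plat had 348 and 369 and 1315 and 546, and Plaur, the urokinase receptor gene, had 101 and 117 and 461 and 250.2, a difference of 1.64 ± 0.38 (SE). Of these 3 genes, each was highest on ventilated 1 and had ventilated 2 above both controls as well. Thbd, the anticoagulant thrombomodulin gene, was apart by a smaller margin, at 638 and 558 and 655 and 757.

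Cytokine genes were mostly dim. Of 13 inflammatory cytokine genes on the array, 6 passed the filter on low signal, 0 of them had the groups apart, and Il6 and Tnf were among those that did not pass. Il1b had signals of 10.0 and 107 on controls and 389 and 59.3 on ventilated arrays, so control 2 lay above ventilated 2. Il1r2, the decoy receptor gene for interleukin-1, had 21.6 and 43.1 and 740.2 and 109, and its 2 probe sets differed by 2.34 and 3.22. The neutrophil chemokine genes Cxcl1 and Cxcl2 were apart but close to the floor, at 16.9 and 11.7 and 11.8 and 4.0 on controls and 47.8 and 24.3 and 42.1 and 30.6 on ventilated arrays. Among 12 CC and other chemokine genes, 6 were positive and 2 were apart upwards (16.7%, beside 12.9% of all genes). Ccl2 had 9.03 and 24.2 and 30.1 and 4.72. Of 17 genes of NF-kappaB and its feedback, 13 were positive and 5 were apart upwards (29.4%, beside 12.9%), led by Nfkbia and by Bcl3. Bcl3, a nuclear partner gene of NF-kappaB, had 67.4 and 112 on controls and 635 and 136 on ventilated arrays. Socs3, the feedback gene of interleukin-6 signalling, was high on ventilated 1 alone, at 730.4 and 116 against 72.1 and 136 on controls, while Cish, a sister gene, had 121 and 102 and 243 and 235 and was about equal on both ventilated arrays.

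Most neutrophil markers were high on ventilated 1 and not on ventilated 2. Of 15 markers tested, 14 had a positive difference and 4 were apart upwards (26.7%, beside 12.9% of all genes), but the array medians were 1.43 and 0.01. Summed over the 15 markers, the signal was 1328 and 2579 on the controls and 10748 and 2236 on the ventilated arrays. S100a9 and S100a8, the calgranulin genes, had 199 and 449.9 and 368 and 967 on controls and 2744 and 440.2 and 4267 and 771 on ventilated arrays, so on ventilated 2 both lay between the controls. Mmp8, the neutrophil collagenase gene, had 9.82 and 7.04 and 1005 and 8.18, above the floor on ventilated 1 alone. Ventilated 1 lay above both controls in 12 of the 15 and ventilated 2 in 5, beside 33.7% and 28.4% of all genes. Ngp, a granule gene of immature neutrophils, was higher on ventilated 2, at 12.9 and 14.6 and 17.3 and 76.9. Il1r2, described above, is in this list too, and its 109 on ventilated 2 was above both controls. Csf3r, the receptor gene for granulocyte colony-stimulating factor, had the groups apart by its brightest probe set, at 199 and 141 and 352 and 258. Its other 2 probe sets were high on ventilated 1 alone, with ventilated 2 between the controls. They had 15 and 91.7 on controls and 413 and 64.6 on ventilated arrays, and 18.7 and 70.0 and 362 and 62.2. In whole lung, more cells of a type and more RNA per cell cannot be told apart. Macrophage markers had array medians of 0.58 and -0.14, with 2 of 13 apart upwards (15.4%, beside 12.9% of all genes). Of these, Msr1, a scavenger receptor gene, had 15.9 and 9.22 and 57.6 and 31.0. B and plasma cell markers had medians of -1.14 and -0.02, with 0 of 12 positive and 2 apart downwards (16.7%, beside 14.5% of all genes). Ms4a1, the B cell surface gene of CD20, had 196 and 257 and 78.9 and 190.5. In its second probe set the groups overlapped, at 132 and 101 on controls and 29.9 and 158 on ventilated arrays. The spike-in signal was also highest on ventilated 1, and its part in these marker levels was not tested.

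Stress programmes showed the same dependence on ventilated 1. Heat shock chaperone genes had array medians of 0.95 and 0.00, with 12 of 14 above both controls on ventilated 1 and 3 of 14 on ventilated 2, beside 33.7% and 28.4% of all genes. Hspa1b, an inducible chaperone gene, had signals of 38.5 and 80.6 on controls and 1615 and 38.4 on ventilated arrays, and Hspa1a had 124 and 81.2 and 1291 and 111. Antioxidant and metallothionein genes had medians of 0.74 and -0.02. Srxn1, Gclc, Txnrd1 and Hmox1, known targets of the oxidant sensor Nrf2, stood at 963, 2056, 1372 and 2851 on ventilated 1 and at 56.1, 442, 311 and 395 on ventilated 2. On the controls Srxn1 had 25.9 and 61.1, Gclc had 292 and 419.6, Txnrd1 had 222 and 339 and Hmox1 had 469 and 535. Of these 4 genes, Gclc alone had ventilated 2 above both controls. Genes of the unfolded protein and amino acid stress responses had medians of 0.63 and 0.07, yet 7 of 19 were apart upwards (36.8%, beside 12.9%). Phgdh, the first enzyme gene of serine synthesis, had 12.9 and 17.7 and 34.6 and 35.0, and Ppp1r15a, which encodes a factor that restores translation after stress, had 139 and 135 and 208 and 253, both about equal on the ventilated arrays. Hypoxia and glycolysis genes had medians of 0.58 and -0.01, with 5 of 20 apart upwards (25%, beside 12.9% of all genes). Hk2, a hexokinase gene, had 127 and 147 and 403 and 201, a difference of 1.06 ± 0.40 (SE). Arg2, the mitochondrial arginase gene, had 41.6 and 49.0 and 246 and 83.8. Among genes above the floor on all 4 arrays, those that differed most between the ventilated arrays were, on the high side of ventilated 1, Srxn1, Sfn, Hspa1b, Hspa1a and Saa3, and, on the high side of ventilated 2, Nrep, Znrf1, Mycl, Adcy2 and Meox2. Saa3, an acute phase gene, had 942 and 42.8 on the ventilated arrays beside 43.1 and 67.8 on controls. Nrep had 120.2 and 1524 beside 1453 and 273. Znrf1 and Srxn1 were ranked by their brightest probe sets. The other probe sets of Znrf1 had 114 and 121 on controls and 218 and 231 on ventilated arrays, and 10.1 and 14.55 and 50.0 and 25.8. The second probe set of Srxn1 had 82.55 and 58.8 and 101.4 and 60.75.

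**Figure D3:**
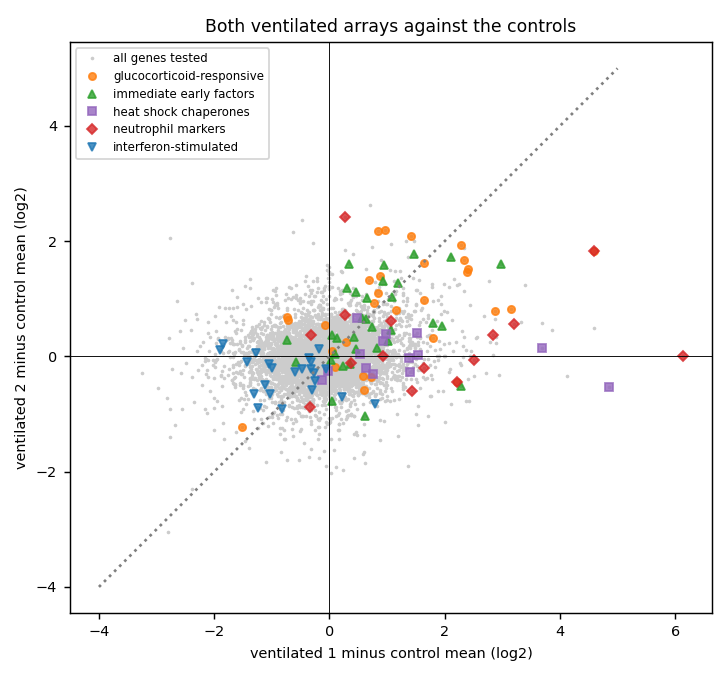
Log2 difference from the mean of the controls on ventilated 1 (horizontal) against ventilated 2 (vertical); grey points are the 6888 genes tested, coloured symbols are members of 5 lists, and the dotted line marks equal differences. The list medians of glucocorticoid-responsive genes, 0.87 and 0.82, and of immediate early genes, 0.62 and 0.49, lie above 0 on both axes, with single members such as Pck1 below 0, while neutrophil markers and heat shock chaperones spread along the horizontal axis, with medians of 1.43 and 0.01 for the neutrophil markers.

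Interferon-stimulated genes had lower mean signals on the ventilated arrays. Of 23 tested, 23 had a negative difference, against 53.2% of all genes. In 10 both ventilated arrays lay below both controls (43.5%, beside 14.5% of all genes). Their median log2 difference was -0.44, and the array medians were -0.60 and -0.22. The interferon-gamma-induced GTPase genes Irgm1, Iigp1 and Igtp, which act against intracellular microbes, each had the groups apart. Irgm1 had signals of 58.1 and 95.6 on controls and 31.5 and 40.1 on ventilated arrays, Iigp1 had 373 and 215 and 115 and 181, and Igtp had 86.4 and 129 and 59.6 and 55.8. Irf9 and Irf1, transcription factor genes of the interferon response, had 419.6 and 315 and 423 and 438 on controls and 177 and 232 and 348 and 288 on ventilated arrays, differences of -0.84 ± 0.31 (SE) and -0.44 ± 0.27 (SE). The antigen processing genes Tap1 and Psmb9 had 287 and 296 and 206 and 215 on controls and 192 and 241 and 106 and 184 on ventilated arrays. Rsad2, an antiviral gene, was low on ventilated 1 alone, at 109 and 96.5 and 28.6 and 119. Isg15 overlapped too, at 216 and 171 and 149 and 189.

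Genes with the largest differences on the low side included those of transcription factors, a secreted peptide and a water channel. Sox11, a developmental transcription factor gene, had signals of 703 and 282 on controls and 69.0 and 194 on ventilated arrays, and its 2 probe sets differed by -1.94 and -1.02. Sox2, which marks airway epithelium, had 293 and 560.4 and 188 and 114, and Tff2, a secreted trefoil peptide gene of mucous epithelia, had 279 and 216 and 55.0 and 130.4. Aqp4, a water channel gene of the epithelium, had 69.2 and 98.5 and 18.9 and 41.9, with a second probe set at -0.45. In the same list of ion and water transport, Cftr, the chloride channel gene, was apart upwards at 94.2 and 69.7 and 179 and 103. Aqp1, the water channel gene of capillaries, was apart upwards too, at 892 and 1035 and 1124 and 1169, though its second probe set differed by -0.15. Sox18, an endothelial transcription factor gene, had 855 and 768 and 451 and 471, a difference of -0.81 ± 0.24 (SE) that both ventilated arrays shared. Kdr, the main receptor gene for VEGF, was low on ventilated 1 alone, at 107 and 456 against 527 and 437 on controls. The claudin genes Cldn5 of endothelium and Cldn4 of epithelium, which form tight junctions, were apart upwards, Cldn5 at 1995 and 1751 and 2397 and 3088 and Cldn4 at 88.6 and 98.7 and 322 and 128.

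Markers of the resident lung cells had negative medians, except that the type 2 median was 0.0036 with arrays scaled to a common median. Among alveolar type 2 markers 6 of 7 were negative and 0 positive, as quantile normalisation fixes Sftpc at a difference of 0. The groups were apart downwards in 1 (14.3%, beside 14.5% of all genes), and the median was -0.19, which was 0.015 without control 1. Among type 1 markers 1 of 5 was positive and 2 were apart downwards (40%, beside 14.5% of all genes), with a median of -0.27. Muc1, an apical mucin gene of type 2 cells, had signals of 1742 and 1609 on controls and 956 and 1495 on ventilated arrays, and Cav1, the caveolin gene of type 1 cells and endothelium, had 2177 and 2018 and 1353 and 1785. Scgb1a1, the club cell secretoglobin gene, had 7754 and 7154 and 7754 and 6681. Summed signal of the 7 type 2 markers was 22154 and 19814 on controls and 18472 and 20861 on ventilated arrays. For smooth muscle and fibroblasts, 14 of the 15 genes tested had a negative difference and 3 were apart downwards (20%, beside 14.5% of all genes). The median was -0.35, but the array medians were -0.79 and 0.04. Ventilated 1 lay below both controls in 13 of the 15 and ventilated 2 in 4, beside 37.7% and 29% of all genes. Acta2, the smooth muscle actin gene, had 831 and 1277 and 184 and 949, a difference of -1.30 ± 0.72 (SE). Summed over the 15 genes the signal was 19047 and 10623 on controls and 6464 and 19878 on ventilated arrays, so control 1 and ventilated 2 were high. Without ventilated 1 the median was 0.042. Among endothelial markers 10 of 13 were negative and 3 were apart downwards (23.1%, beside 14.5% of all genes) and 1 upwards, with a median of -0.21 and array medians of -0.32 and 0.01, and the median was 0.014 without ventilated 1. Cardiac muscle markers, which can enter a lung sample with the pulmonary veins or heart, varied between the controls, with sums of 5122 and 9449 against 5128 and 4237 on the ventilated arrays. Myh6, a cardiac myosin gene, had 643 and 839 and 355 and 444. Fat and mesothelial markers had 5 of 10 members apart downwards (50%, beside 14.5% of all genes) and 1 upwards (10%, beside 12.9%). Adipoq, the fat hormone adiponectin gene, had 118 and 353 and 66.5 and 82.0, and Car3, an enzyme gene abundant in fat, had 213 and 481 and 89.5 and 119. The share of neighbouring tissue in each sample was not measured apart from these markers, and its part in the lower genes was not tested.

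**Figure D4:**
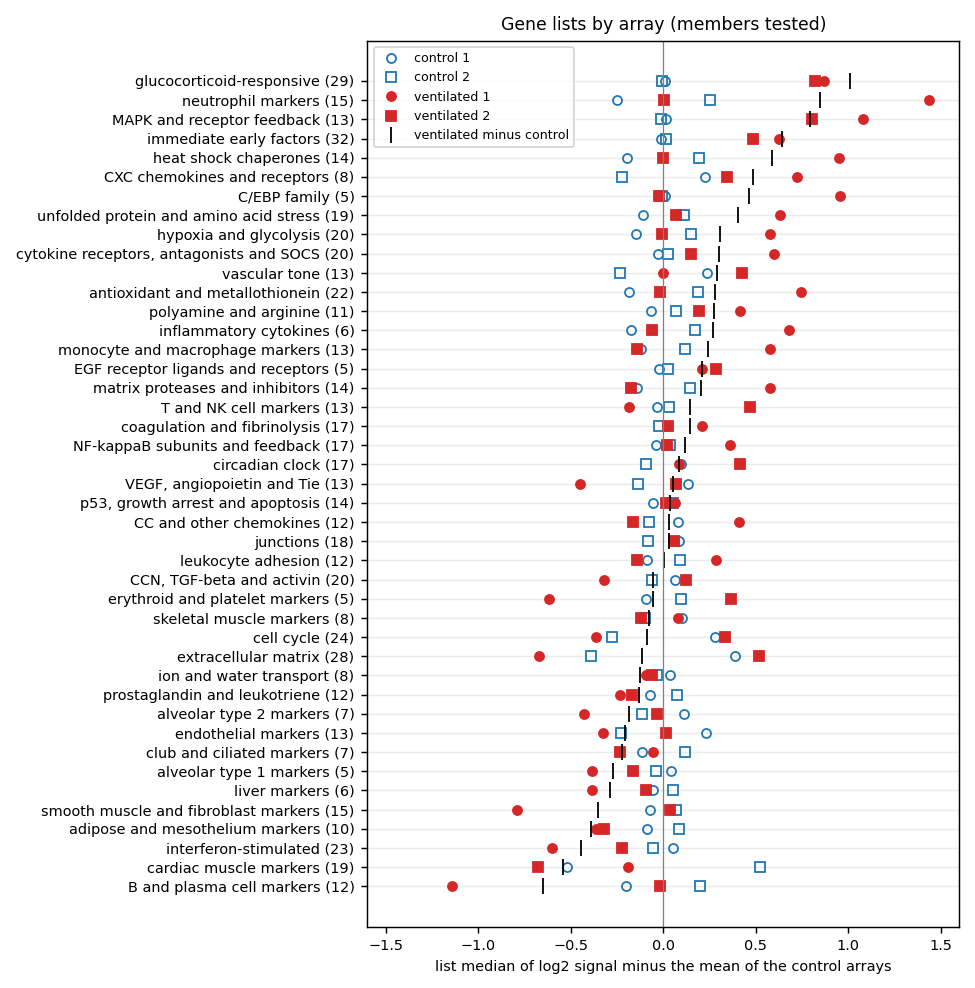
Median log2 signal of each gene list on each array, relative to the mean of the control arrays, with the median of the ventilated minus control differences as a bar; the number of members tested is in parentheses, and the control medians roughly mirror each other because they are taken from their own mean. The glucocorticoid-responsive list has both ventilated arrays to the right of both controls, at 0.87 and 0.82, and the extracellular matrix list has the arrays of each group on opposite sides, at 0.39 and -0.39 for controls and -0.67 and 0.52 for ventilated arrays.

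Matrix genes varied within the groups more than between them. Of 28 extracellular matrix genes, 10 were positive, 4 were apart upwards and 1 downwards (3.57%, beside 14.5% of all genes). The median difference was -0.11. Ventilated 1 lay below both controls in 18 of the 28, beside 37.7% of all genes. Ventilated 2 lay above both in 21, beside 28.4% of all genes. Eln, the elastin gene, had signals of 6841 and 1461 on controls and 1143 and 7419 on ventilated arrays. The fibrillar collagen genes Col1a1 and Col3a1 had 3199.7 and 1128 and 1372 and 423 on controls and 501 and 3459.7 and 218 and 1358 on ventilated arrays. Eln, Col1a1 and Col3a1 were named after their values were seen. In these 3 genes control 1 and ventilated 2 were high and control 2 and ventilated 1 low. Cell cycle genes had array medians of 0.28 and -0.28 on the controls and -0.37 and 0.33 on the ventilated arrays, in the same order. The Gapdh 3′ to 5′ ratio given above, 2.96 and 1.16 on controls and 1.53 and 2.48 on ventilated arrays, ran in that order too, and its part in the matrix and cell cycle levels was not tested. The 4 matrix genes apart upwards were 14.3% of the list, beside 12.9% of all genes. Lox, a crosslinking enzyme gene, had 381 and 86.1 and 719.7 and 433, Vcan, the versican gene of provisional matrix, had 84.8 and 56.7 and 222 and 105, and Tnc, the tenascin gene that injury induces, had 47.5 and 45.1 and 83.9 and 73.3. Fn1, the fibronectin gene, was apart as well, at 344 and 203 and 481 and 359.9. Dcn, the proteoglycan decorin gene, was apart downwards at 1521 and 1779 and 950.5 and 1229, a difference of -0.61 ± 0.25 (SE).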

How the data were processed

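Per the labels, total lung RNA was primed with oligo-dT, amplified to biotinylated cRNA and hybridised to the MG_U74Av2 array. The deposited values are signal intensities, 1 per probe set, on a linear scale, and the scaling the authors applied is seen only in the values: the 2% trimmed mean was 150.1 on each array. The image software, scaling target and presence calls were not given in the sources used here. The experiment description files hold no signal and were not used here, and 0 value columns lacked a sample. Signals of this kind carry no read depth, and precision is limited by having 2 arrays in a group.

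Of 12422 probe sets, 10833 had 1 symbol in the supplied array table, 396 had several and 1193 had none; 66 control probe sets served for quality values only. Symbols were updated through gene identifiers of the RefSeq assembly GRCm38.p6, which also gave the promoter windows. Quantile normalisation was run over the 4 arrays, a floor was set at the 25th percentile of all signals (14.25), and values were logged to base 2. The brightest probe set stood for each of 8251 genes, and 6888 genes whose mean exceeded the 25th percentile were kept. Printed signals are normalised, without the floor. The groups were compared by limma 3.58.1 under R 4.3.3, with lmFit and a trended eBayes. Tests were two-sided, and a gene was called at an adjusted p (Benjamini-Hochberg) under 0.05. The script was tested on simulated data, where recovery of differences was required only at a spread smaller than that of these arrays. That trial therefore does not show that differences of such size would be called here. "Apart" means that both ventilated arrays lay on the same side of both controls, and list medians were taken over members tested.

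The comparison, the 43 gene lists and the genes looked at in every case were chosen with earlier results of these data known, and lists overlap in places. The rule named the 15 largest differences per direction among genes apart and above the floor on all arrays, the 5 members of each list with the smallest p, fixed single genes, and, among genes above the floor on all arrays, the 5 per direction that differed most between the ventilated arrays. Outside it, and chosen after their values were seen, were Angptl4, Bcl6, Clock, Col1a1, Col3a1, Ddit4, Dusp16, Dusp2, Eln, Gadd45b, Irf1, Isg15, Jun, Junb, Klf9, Nr3c1, Psmb9, Rsad2, Serpina3n, Slc10a6, Tap1 and Txnrd1, beside the genes at least 2-fold beyond both controls. The replicate numbers do not pair the samples: control 1 minus control 2 and ventilated 1 minus ventilated 2 correlated at -0.285 across genes. Alternatives were other scalings, floors, filters, probe set rules and variance priors, an adjusted p under 0.10, a replicate block, and leaving out 1 array at a time.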

Additional observations from a re-analysis of the deposited data

Results flagged for a closer look

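Control probe sets took no part in the comparison, and they held a signal of their own. The hybridisation spike-ins stood at 2.62 times the control mean on ventilated 1 (median ratio of 9 probe sets), against 0.990 and 1.01 on the controls and 0.960 on ventilated 2. Ventilated 1 was also the array alone at least 2-fold above the other 3 in 169 genes and alone at least 2-fold below them in 229, whereas for ventilated 2 these counts were 34 and 29. A relation between these values was not tested.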

How the results depend on the processing

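The count of genes called was 0 under every scaling, floor, filter, probe set rule and variance prior tried, at an adjusted p under 0.10 and without any single array, with a smallest limma adjusted p of 0.0614 (no filter). With the replicate block it was also 0, with 137 genes at an unadjusted p under 0.05. Crossed numbers as a block, an alternative added after seeing the data, called 0 genes too, with 411 at an unadjusted p under 0.05. Genes apart and at least 2-fold numbered 78 higher and 36 lower with the floor at the 40th percentile and 77 and 34 with the filter at the 50th, as the former compresses and the latter leaves out dim genes, and 163 to 367 and 114 to 443 without 1 array. Scaling to a common median moved the medians of immediate early factors to 0.75 and of glucocorticoid-responsive genes to 1.12. Without 1 array, medians ran from 0.52 to 0.63 for immediate early factors, 0.81 to 1.12 for glucocorticoid-responsive genes, 0.71 to 1.07 for kinase and receptor feedback, -0.60 to -0.22 for interferon-stimulated genes and 0.19 to 1.41 for neutrophil markers. Without 1 array the medians of 22 of the 43 lists changed sign, and 8 did so by more than the spread between replicates, namely extracellular matrix (-0.66 to 0.50), cell cycle (-0.26 to 0.33), VEGF and Tie (-0.45 to 0.17), C/EBP (-0.024 to 0.94), cardiac muscle (-1.09 to 0.049), skeletal muscle (-0.15 to 0.26), ion and water transport (-0.14 to 0.015) and p53 genes (-0.084 to 0.17). Under the other settings 9 list medians changed sign, 0 of them by more than that spread, and none of the 96 genes followed changed sign. Of these genes, 6 changed sign without 1 array, namely Fos (-0.70 to 1.94), Egr1 (-1.18 to 0.45), Socs3 (-0.10 to 2.85), Srxn1 (-0.20 to 4.53), Hspa1b (-0.55 to 4.80) and Hmox1 (-0.34 to 2.53) on the log2 scale; the cause was not tested. A lone array in a group was assumed to vary like the other group.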
